A study of Oryza sativa with 16 samples.

Results

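Leaf RNA of unscented rice was compared between a pool of inbred lines and one of the parents of those lines. The non-aromatic bulk held the RNA of 6 recombinant inbred lines at the unscented extreme of a smell test, from a cross of Pusa 1121 with Pusa 1342, and its 4 arrays were set against the 4 arrays of Pusa 1342, the non-aromatic parent. These were 8 of the 16 arrays of the study, chosen by their titles, and every non-control probe set entered the comparison. The other 8 arrays came from a bulk of 6 scented lines and from Pusa 1121, the aromatic basmati-type parent. Levels of Pusa 1121 are given beside a part of the genes named here. All plants stood untreated in the field, and fresh leaves were sampled 25 days after the seedlings had been transplanted.

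The bulk is a mixture of 6 genotypes, each a fixed mosaic of both parental genomes, whereas Pusa 1342 is a single variety. A pooled level is therefore an average over lines and shows no single line. The submitters describe the 4 arrays of a group as biological replicates, but no source used here gives their plants or pools, so a p-value covers only variation from array to array, part of which can be technical. Of the 8 photosynthesis genes that mark leaf tissue 1 was under an intensity of 100 in both groups, and the list had summed intensities of 136000 to 140000 on the bulk arrays and 130000 to 135000 on the Pusa 1342 arrays. Of 11 markers of floral organs 8 stayed under an intensity of 100 in both groups, and so did 8 of 9 markers of shoot meristems. In leaf RNA, fewer cells of a type and less RNA per cell cannot be told apart.

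BADH2, on chromosome 8, encodes a betaine aldehyde dehydrogenase that removes an aldehyde formed in polyamine breakdown. In fragrant rice this enzyme is lost, and the aldehyde feeds the popcorn-like aroma compound 2-acetyl-1-pyrroline. Unscented varieties carry a working copy. The genotypes of the pooled lines, at BADH2 or elsewhere, were not analysed here.

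Of 57194 probe sets tested, 13514 passed an adjusted p of 0.05 with limma (23.6%), 6463 of them higher in the bulk (11.3%) and 7051 lower (12.3%). Read through the brightest probe set of each gene, 6947 of 17905 genes passed (38.8%), 3508 higher (19.6%) and 3439 lower (19.2%). Among them, 1688 genes also differed at least 2-fold (9.43%), 870 of them higher in the bulk and 818 lower, and so did 5241 probe sets (9.16%). The 4 bulk arrays did not overlap the 4 Pusa 1342 arrays in 8236 genes (46.0%). The median log2 difference over all genes was -0.01, and it was 0.58 among the genes called higher and -0.60 among those called lower. These shares are the background for every gene group below, since a list with about 38.8% of its members called does as all genes do. Of the genes with a mean of at least 100 in either group 48.1% passed, and of the 2458 genes with a published name 41.9%.

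**Figure D1:**
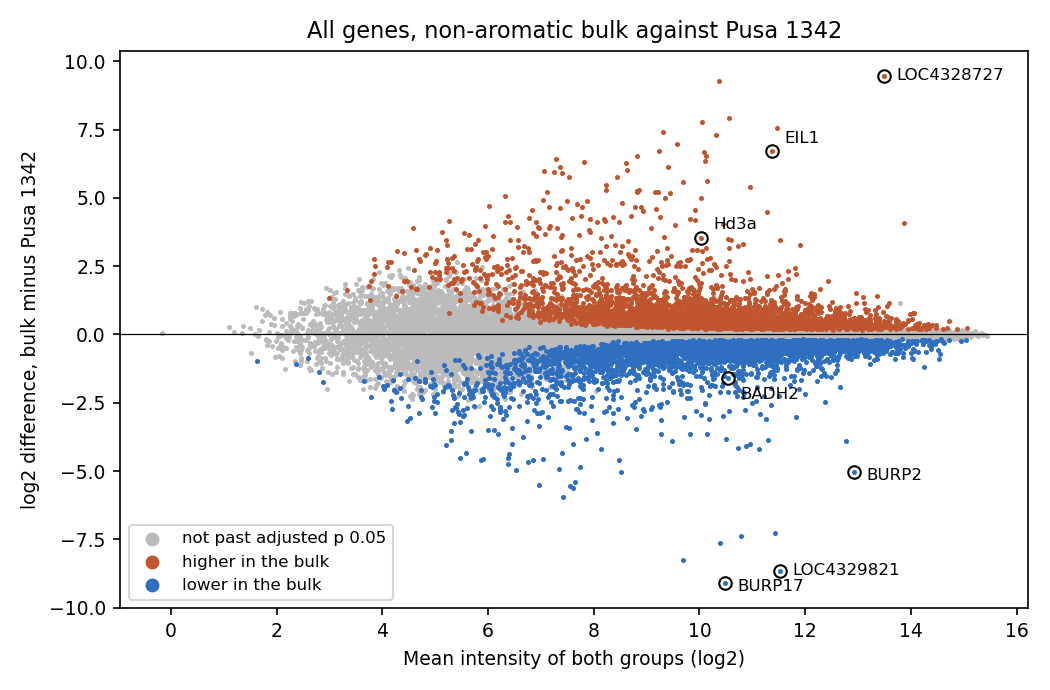
Each point is a gene, placed by the log2 of its mean linear intensity over both groups (horizontal) and by the log2 difference of the non-aromatic bulk minus Pusa 1342 (vertical). Orange points passed an adjusted p of 0.05 higher in the bulk and blue points lower. LOC4328727 lies at 9.46 and BURP17 at -9.08, the ends of the range named here, and BADH2 lies at -1.61.

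BADH2 itself was lower in the bulk although both groups are unscented. Its intensity (LOC4345606) was 808.5, 683.4, 686.9 and 751.4 on the bulk arrays, against 2236, 2234, 2218 and 2243 on the Pusa 1342 arrays. Every bulk array lay below every Pusa 1342 array. The means were 733 ± 59.5 in the bulk and 2233 ± 10.3 in Pusa 1342 (SD, n = 4 each), a log2 difference of -1.61 (SE 0.115, limma adjusted p = 2.15e-07). The bulk stayed above Pusa 1121, which averaged 349 ± 54.1, by a log2 difference of 1.08 (limma adjusted p = 6.69e-06); in that contrast 44.1% of all genes passed. On the linear scale the bulk mean lay 79.6% of the way from the Pusa 1342 mean to the Pusa 1121 mean.

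BADH1, on chromosome 4, is the paralog of BADH2 and encodes an aldehyde dehydrogenase of overlapping substrates. It read 1115, 1189, 1053 and 1219 in the bulk, against 1919, 2163, 1994 and 2008 in Pusa 1342. The groups did not overlap, and BADH1 was lower in the bulk by a log2 difference of -0.82 (limma adjusted p = 0.000115). Pusa 1121 averaged 896 ± 167, and the bulk mean lay 77.9% of the way towards it. Both aldehyde dehydrogenase genes were thus lower in the bulk, BADH2 by the larger margin.

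P5CS1, on chromosome 5, encodes the pyrroline-carboxylate synthase that opens proline synthesis from glutamate. It read 3980, 4411, 4254 and 4391 in the bulk, against 6609, 6585, 6512 and 6441 in Pusa 1342. The groups did not overlap, with a log2 difference of -0.62 (limma adjusted p = 5.91e-06). Pusa 1121 averaged 2397 ± 81.4, so that the bulk lay between the parents, 55% of the way to Pusa 1121. Its paralog P5CS2 averaged 417 ± 44 in the bulk and 484 ± 84.7 in Pusa 1342, a log2 difference of -0.20 that did not pass (limma adjusted p = 0.389), although 1 dim further probe set did, at 2.1 in the bulk and 13.5 in Pusa 1342 (limma adjusted p = 0.0497).

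OAT, ornithine aminotransferase, supplies pyrroline-carboxylate from ornithine, and its probe sets disagreed. The brighter one averaged 2393 ± 81.8 in the bulk and 2258 ± 202 in Pusa 1342 and did not pass (log2 0.09, limma adjusted p = 0.482), while the second averaged 273 in the bulk and 606 in Pusa 1342 and fell by 1.15 on the log2 scale (limma adjusted p = 8.64e-05). ADC1, arginine decarboxylase of polyamine synthesis, was the 1 gene of the list that rose, with 11785 ± 805 in the bulk and 6128 ± 252 in Pusa 1342 (log2 0.94, limma adjusted p = 4.26e-07). Its other probe set read 1116 in the bulk and 1008 in Pusa 1342 and missed the threshold. Over the 8 scent, proline and polyamine genes measured, 1 was called higher, 3 lower and 4 not, which is 50% called, and the median log2 difference was -0.06.

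**Figure D2:**
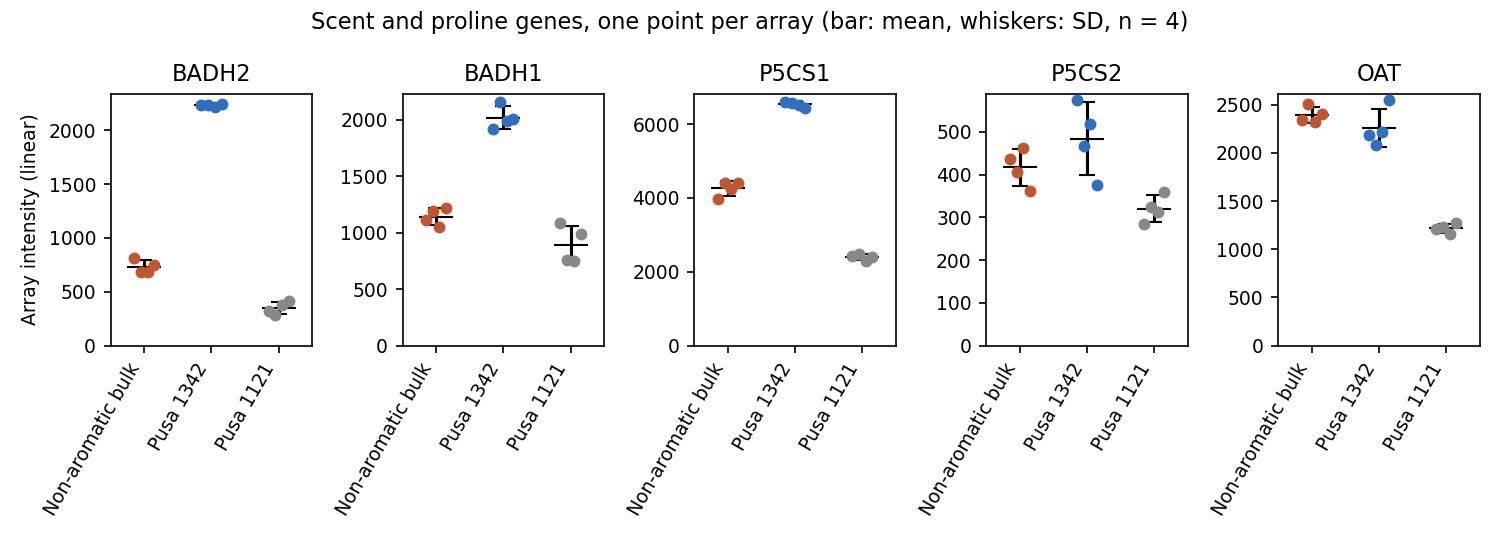
Linear array intensity of BADH2, BADH1, P5CS1, P5CS2 and OAT, 1 point per array, with the mean (bar) and SD (whiskers) of the 4 arrays of the non-aromatic bulk, Pusa 1342 and Pusa 1121. For BADH2, BADH1 and P5CS1 the bulk arrays lie below all Pusa 1342 arrays, while for P5CS2 and OAT the bulk and Pusa 1342 arrays overlap.

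The genes around BADH2 passed at about the share of all genes. Of the 100 measured genes that flank it, 50 on either side in the gene order, 20 were higher and 20 lower in the bulk, which is 40% called, and their median log2 difference was -0.05. In a narrower window of 10 measured genes on either side, added beyond the planned one, 0 were higher and 4 lower, or 20% called. Those 4 genes all lay on the same side of BADH2. The one with the lowest p, LOC4345614, averaged 2990 in the bulk and 6570 in Pusa 1342 (log2 -1.14, limma adjusted p = 8.82e-08), and the others were LOC4345611 (log2 -0.51), LOC4345612 (log2 -0.62) and LOC4345619 (log2 -0.29). Pusa 1121 lay below Pusa 1342 for LOC4345614, LOC4345612 and LOC4345619. For LOC4345611 it lay above, with 2165 in the bulk, 3081 in Pusa 1342 and 8819 in Pusa 1121. Within the 50-gene window the largest rise was that of LOC4345573, with 337 ± 58.1 in the bulk and 41.2 ± 25.9 in Pusa 1342 (log2 3.15, limma adjusted p = 0.00051). Pusa 1121 averaged 65.4 for it, below the bulk. The largest fall was that of LOC4345559, with 283 ± 68.5 in the bulk and 1155 ± 42.1 in Pusa 1342 (log2 -2.05, limma adjusted p = 5.25e-07). Pusa 1121 averaged 268 for LOC4345559, close to the bulk. Only 13 of the 20 nearest genes and 70 of the 100 had a mean of at least 100 in either group. By chromosome the share of genes called ran from 36.7% on chromosome 12 to 42.2% on chromosome 7, with 38.1% on chromosome 8.

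**Figure D3:**
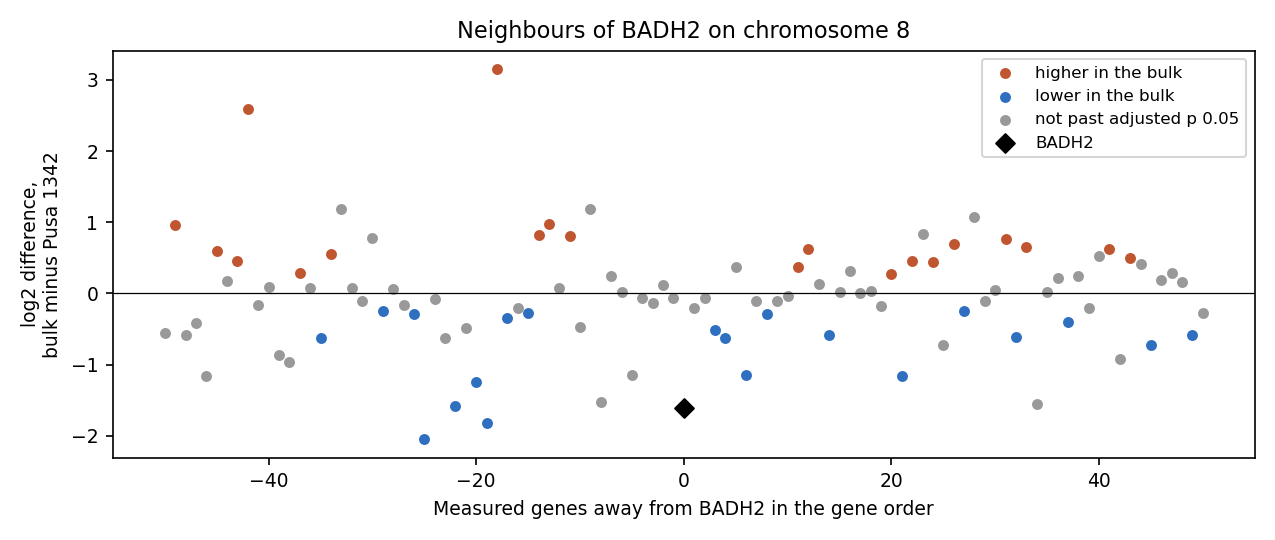
Log2 difference of the non-aromatic bulk minus Pusa 1342 for the 50 measured genes on either side of BADH2 on chromosome 8, against the number of measured genes away from it. Orange and blue points passed an adjusted p of 0.05 higher and lower in the bulk, 20 of each. The nearest genes include 4 called lower and 0 called higher within 10 genes, and BADH2, the diamond, lies at -1.61.

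Among genes with a published name and a mean of at least 200 in one of the groups, the largest rise was that of the locus listed as EIL1 (LOC4332697, chromosome 3), a member of the EIN3-like family of ethylene transcription factors. It read 5590, 4715, 5484 and 5207 in the bulk, against 55.8, 61.2, 45 and 38.6 in Pusa 1342. The gene was below the array median of 64.2 in Pusa 1342 and bright in the bulk, with a log2 difference of 6.70 (SE 0.127, limma adjusted p = 9.35e-13). Pusa 1121 averaged 12697 ± 226, above the bulk.

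Other genes were also higher in the bulk and in Pusa 1121 than in Pusa 1342. AT5, an acyltransferase gene of the BAHD family, averaged 6916 ± 178 in the bulk, 724 ± 69.7 in Pusa 1342 and 9653 in Pusa 1121 (log2 3.26 against Pusa 1342, limma adjusted p = 1.52e-11). LOX8, a lipoxygenase gene, averaged 2714 ± 142 in the bulk, 299 ± 16.6 in Pusa 1342 and 4235 in Pusa 1121 (log2 3.18). BC1L9, of the COBRA-like family of cell wall proteins, averaged 729 ± 57.7 in the bulk, 68.6 ± 16.6 in Pusa 1342 and 1596 in Pusa 1121 (log2 3.42). In these 3 genes, as in EIL1, the pooled level lay between those of the parents. BURP16 was close to Pusa 1121, with 393 ± 50.6 in the bulk and 358 in Pusa 1121, against 19.2 ± 21.7 in Pusa 1342 (log2 4.79, limma adjusted p = 5.66e-06), and so was the minichromosome maintenance gene MCM9, with 218 in the bulk, 20.7 in Pusa 1342 and 207 in Pusa 1121 (log2 3.62).

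A further set of rises stood above both parents. FTSH6, of the FtsH family of membrane proteases, averaged 1258 ± 46.3 in the bulk, 45.4 ± 25.9 in Pusa 1342 and 362 in Pusa 1121 (log2 4.98 against Pusa 1342, limma adjusted p = 2.09e-07). WNK7, a WNK-type protein kinase gene, averaged 2624 ± 228 in the bulk, 163 ± 51 in Pusa 1342 and 326 in Pusa 1121 (log2 4.05, limma adjusted p = 1.92e-09). The lectin gene salT, known for its induction by salt, averaged 2828 ± 174 in the bulk, 255 ± 21.5 in Pusa 1342 and 1070 in Pusa 1121 (log2 3.47, limma adjusted p = 1.53e-11). Each of these 3 also passed against Pusa 1121, with log2 differences of 1.81 for FTSH6, 3.00 for WNK7 and 1.40 for salT. The alpha-expansin gene EXPA1 had 228 ± 45.2 in the bulk, 18.8 ± 18.5 in Pusa 1342 and 94.6 in Pusa 1121, which passed against Pusa 1342 (log2 3.93, limma adjusted p = 0.000166) and not against Pusa 1121 (limma adjusted p = 0.134). The aromatic bulk averaged 588 for FTSH6, 2720 for WNK7 and 1227 for salT, also above both parents. For EXPA1 it averaged 53.8, between them.

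The largest fall among them was that of BURP17 on chromosome 11, one of the plant genes with a BURP domain. It read 3.8, 5.1, 2.1 and 7.5 in the bulk, against 3027, 2887, 2845 and 2686 in Pusa 1342. The bulk values were far below the array median, as were those of Pusa 1121 (12.4 ± 7.32). The log2 difference was -9.08 (SE 0.522, limma adjusted p = 2.62e-08), and its size depends on the value of 1 added before the log. BURP2, another member of the family, averaged 474 ± 153 in the bulk and 14997 ± 679 in Pusa 1342 (log2 -5.04, limma adjusted p = 3.3e-10), with 7373 in Pusa 1121. For BURP2 the bulk was below both parents, whereas the aromatic bulk averaged 25803 ± 1040, above both. Of the 7 BURP domain genes measured, 1 was higher, 3 were lower and 3 were not called (57.1% called).

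Several other falls left the bulk below both parents. LAC7, a laccase gene, averaged 515 ± 65 in the bulk, 4353 ± 232 in Pusa 1342 and 3866 in Pusa 1121 (log2 -3.08 against Pusa 1342, limma adjusted p = 2.38e-10). TUB4, a beta-tubulin gene, averaged 245 ± 23.7 in the bulk, 2087 ± 78.9 in Pusa 1342 and 410 in Pusa 1121 (log2 -3.09), while its other probe sets gave -1.22 with a call and -0.65 without. LIS, which encodes the linalool synthase that makes a floral monoterpene alcohol, read 23.1, 68.8, 10.4 and 32.9 in the bulk, against 203, 180.4, 237.9 and 218.7 in Pusa 1342 (log2 -2.89, limma adjusted p = 8.97e-05). Pusa 1121 averaged 173 ± 42.2 for LIS, so the unscented bulk was lower than both parents. The aromatic bulk averaged 1667 ± 88.8 for LIS, above both parents. ILL8, of the family that releases auxin from amino acid conjugates, had 53.4 in the bulk, 274 in Pusa 1342 and 164 in Pusa 1121 (log2 -2.44). All 4 of these genes also passed against Pusa 1121. The aromatic bulk averaged 566 for LAC7, 255 for TUB4 and 71.5 for ILL8, also below both parents.

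In a last set the bulk was far below Pusa 1342, as Pusa 1121 was. ACO1, an oxidase gene of the final step of ethylene synthesis, averaged 38.3 ± 30.1 in the bulk, 678 ± 23.7 in Pusa 1342 and 13.6 in Pusa 1121 (log2 -4.58, limma adjusted p = 0.000176). MCM2, a subunit of the replicative helicase, had 21.7 ± 5.7 in the bulk, 370 ± 110 in Pusa 1342 and 25.5 in Pusa 1121 (log2 -4.03). ASMT, named for the methyltransferase of melatonin synthesis, averaged 92.6 ± 29 in the bulk, 1342 ± 88.9 in Pusa 1342 and 18 in Pusa 1121 (log2 -3.89). XTH8, a xyloglucan-remodelling enzyme gene of the cell wall, had 130 ± 61 in the bulk, 718 ± 136 in Pusa 1342 and 67.1 in Pusa 1121 (log2 -2.58). ASMT also differed between the bulk and Pusa 1121 (limma adjusted p = 0.00174), whereas ACO1, MCM2 and XTH8 did not pass in that contrast.

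Differences of similar size were found in loci with no published name. LOC4328727 (chromosome 2) averaged 22968 ± 224 in the bulk and 43.2 ± 37.2 in Pusa 1342, with 28989 in Pusa 1121, and all 4 of its probe sets rose. LOC4340998 (chromosome 6) read 2170, 2159, 2075 and 2032 in the bulk, against 5.4, 4, 5.2 and 42.9 in Pusa 1342. It was bright in the bulk and dim in both parents, since Pusa 1121 averaged 9.31 ± 7.36, and it was bright again in the aromatic bulk, at 2534 ± 95.5. Its second probe set averaged 91.2 in the bulk and 82.2 in Pusa 1342 and did not pass. Among the falls, LOC4329821 (chromosome 2) averaged 16.2 ± 8.9 in the bulk and 5885 ± 1590 in Pusa 1342, with 20.3 in Pusa 1121 (log2 -8.65, limma adjusted p = 5.51e-07), yet its second probe set gave 1293 in the bulk and 1322 in Pusa 1342. LOC4329826, with only 5 genes between them in the gene order, had 18.5 in the bulk and 2647 in Pusa 1342 (log2 -7.63). Whether sequence differences under the probes take part in such disagreements was not tested.

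**Figure D4:**
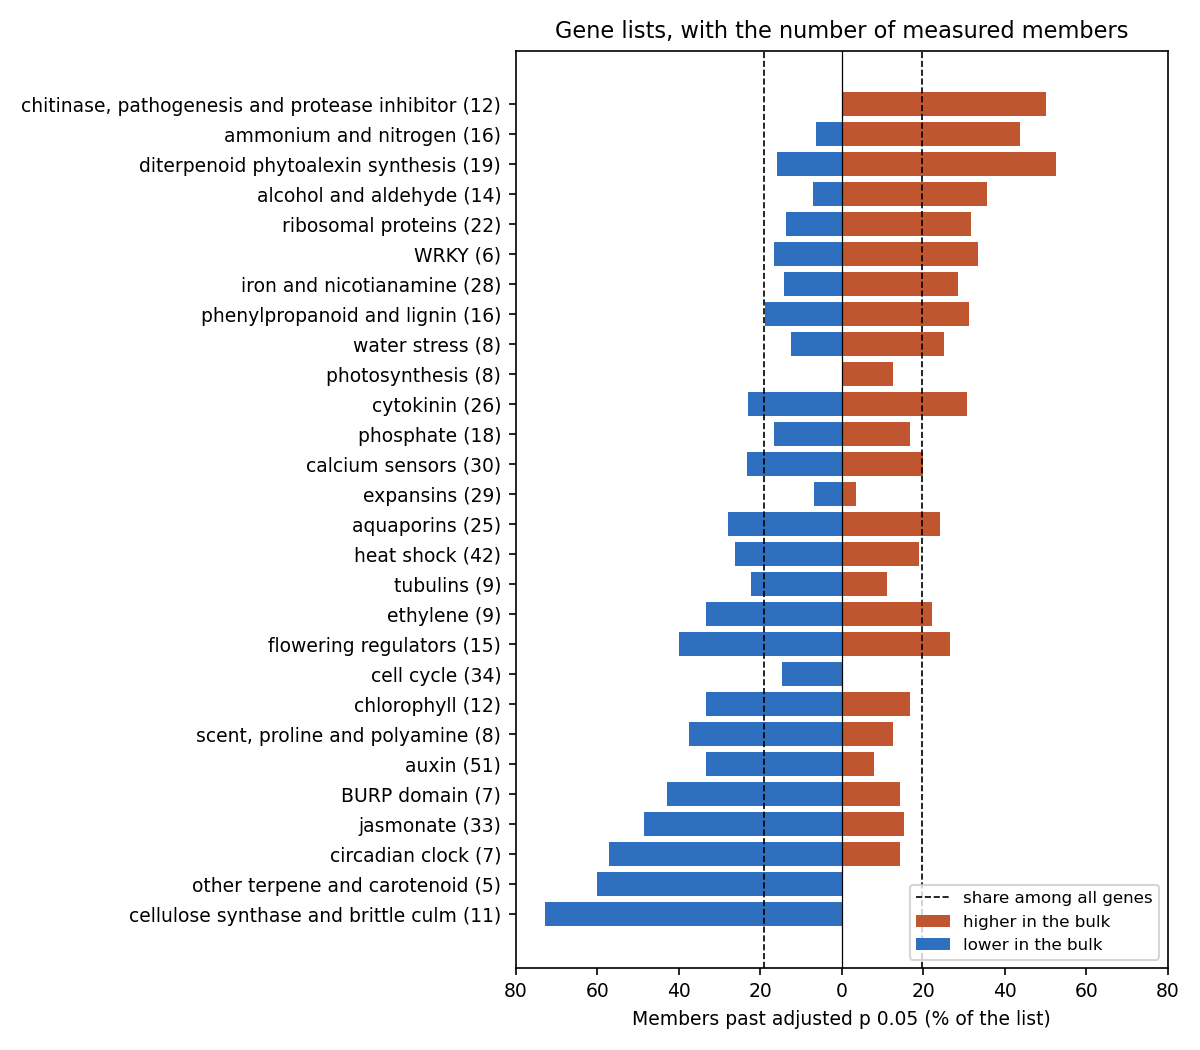
Share of the measured members of each gene list that passed an adjusted p of 0.05 lower in the bulk (blue, to the left) and higher in the bulk (orange, to the right), with the number of members in parentheses. The dashed lines mark the shares among all genes, 19.2% lower and 19.6% higher. The chitinase list reaches 6 of 12 to the right with 0 to the left, and the cellulose synthase list 8 of 11 to the left with 0 to the right.

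Flowering genes were called in both directions. The leaf makes florigen, the protein signal encoded by Hd3a, which travels to the shoot tip and turns on MADS genes of floral identity. Hd3a, on chromosome 6, read 1884, 1863, 1972 and 1934 in the bulk, against 212.2, 121.1, 158.9 and 175.2 in Pusa 1342. The groups stood far apart, with a log2 difference of 3.54 (SE 0.134, limma adjusted p = 5.24e-10). Pusa 1121 averaged 194 ± 12.1, so Hd3a was higher in the bulk than in either parent, which also held in the contrast with Pusa 1121 (limma adjusted p = 4.77e-10).

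Of the MADS genes of the APETALA1 type that act downstream of florigen, MADS14 averaged 8141 ± 484 in the bulk, 4125 ± 112 in Pusa 1342 and 375 in Pusa 1121 (log2 0.98 against Pusa 1342, limma adjusted p = 8.09e-06), a rise seen in each of its 4 probe sets. MADS15 averaged 579 ± 176 in the bulk, 60 ± 51.9 in Pusa 1342 and 12.5 in Pusa 1121 (log2 3.62, limma adjusted p = 0.00135), and 2 more of its probe sets rose. MADS18, a relative of both, fell by 0.30 on the log2 scale (limma adjusted p = 0.00335). MADS14 and MADS15 were thus above both parents, as Hd3a was. The aromatic bulk averaged 290 for Hd3a, 252 for MADS14 and 16.9 for MADS15.

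MADS50, a promoter of flowering related to Arabidopsis SOC1, went the other way. It read 402.8, 427.8, 408.8 and 427.7 in the bulk, against 1634, 1681, 1805 and 1670 in Pusa 1342. The groups did not overlap (log2 -2.02, SE 0.0637, limma adjusted p = 1.06e-10), and Pusa 1121 averaged 1534 ± 35.6, close to Pusa 1342 and above the bulk. MADS56, a paralog of MADS50 known as a repressor in long days, averaged 1662 in the bulk, 5373 in Pusa 1342 and 31.6 in Pusa 1121 (log2 -1.69). MADS55, of the SVP group, rose to 5960 ± 169 in the bulk, against 2969 ± 284 in Pusa 1342 (log2 1.01). In all, 4 of the 15 flowering regulators measured were called higher, 6 lower and 5 not (66.7% called), with a median log2 difference of -0.22. Hd1, the repressor or promoter of Hd3a according to day length, was dim, with 59.2 in the bulk and 90.6 in Pusa 1342, and did not pass (limma adjusted p = 0.445).

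Markers of floral organs are given beside Hd3a, MADS14 and MADS15. Of 11 measured, 0 were higher and 1 was lower, and their summed intensity ran from 2050 to 2430 on the bulk arrays and from 3940 to 4520 on the Pusa 1342 arrays. The lower one, MADS16, a petal and stamen identity gene, read 1164, 1384, 1175 and 1050 in the bulk, against 3055, 3554, 2994 and 3159 in Pusa 1342 (log2 -1.42, limma adjusted p = 5.65e-07). Its groups did not overlap. The count of floral markers depended on the probe sets used. With the mean of a gene's probe sets, 1 was higher and 1 lower. With only probe sets of a mean of at least 100, 3 floral markers remained, 2 of them higher and 1 lower. Of the 9 meristem markers 0 passed with limma, and their sums ran from 372 to 705 in the bulk and from 531 to 647 in Pusa 1342. The part of floral or meristem tissue in the flowering values was not tested beyond these levels.

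The circadian clock list had 7 measured genes, 1 higher, 4 lower and 2 not called (71.4% called), with a median log2 difference of -0.33. GI, a clock and flowering gene, averaged 9350 ± 488 in the bulk and 14388 ± 841 in Pusa 1342 (log2 -0.62, limma adjusted p = 2.55e-05), and the pseudo-response regulator PRR73 averaged 11384 ± 193 in the bulk and 17997 ± 409 in Pusa 1342 (log2 -0.66). PRR37 fell by 0.54 on its brightest probe set, but rose by 0.40 on the other (limma adjusted p = 0.0284). PRR1 rose by 0.53. CCA1, the morning gene of the clock, did not pass, with 11442 ± 282 in the bulk and 11918 ± 1030 in Pusa 1342 (limma adjusted p = 0.712), whereas Pusa 1121 averaged 888. The labels do not give the hour of sampling, and its part in these values was not tested.

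Genes of diterpenoid phytoalexin synthesis were mostly higher in the bulk. These enzymes make momilactones and phytocassanes, labdane-type antimicrobial compounds of rice, from geranylgeranyl diphosphate: cyclases of the CPS and KSL families build the ring skeleton and cytochrome P450 enzymes decorate it. KSL7, a phytocassane cyclase gene on chromosome 2, read 1015, 1048, 999.9 and 1112 in the bulk, against 208.4, 222.5, 227.2 and 260.3 in Pusa 1342. The groups did not overlap (log2 2.18, SE 0.0969, limma adjusted p = 2.25e-09), and KSL7 averaged 140 ± 17.5 in Pusa 1121.

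CPS4, the first cyclase of momilactone synthesis on chromosome 4, read 952.1, 1080, 1091 and 1117 in the bulk, against 181, 179.5, 141.9 and 171.2 in Pusa 1342. It rose by 2.65 on the log2 scale (SE 0.12, limma adjusted p = 2.65e-09) and averaged 144 ± 23 in Pusa 1121. KSL7 and CPS4 thus stood above both parents, with log2 differences of 2.90 and 2.88 against Pusa 1121. The aromatic bulk averaged 744 for KSL7, also above both parents, and 153 for CPS4, between them.

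The P450 genes beside them in the pathways followed in part. CYP71Z7, of the chromosome 2 set, averaged 4722 ± 327 in the bulk, 1553 ± 108 in Pusa 1342 and 1767 in Pusa 1121 (log2 1.60 against Pusa 1342, limma adjusted p = 4.38e-09). In the aromatic bulk CYP71Z7 averaged 4275, also above both parents. On chromosome 4, CYP99A3 averaged 1421 ± 45.9 in the bulk and 586 ± 47.3 in Pusa 1342 (log2 1.28), CYP99A2 rose by 1.13, and MAS, the momilactone A synthase gene, rose by 2.05 with 186 ± 29.8 in the bulk and 45.7 ± 15.5 in Pusa 1342. CPS2, the cyclase that precedes KSL7, averaged 2266 ± 320 in the bulk and 1152 ± 167 in Pusa 1342 (log2 0.98, limma adjusted p = 0.000136). The other way went KSL5, with 125 ± 14.6 in the bulk and 610 ± 71.3 in Pusa 1342 (log2 -2.28, limma adjusted p = 0.000249). So did the locus listed as CYP76M7, which lies on chromosome 6 (log2 -1.60), and CPS1, the cyclase of gibberellin synthesis (log2 -0.63). KSL4, which follows CPS4, and KSL10 did not pass, with limma adjusted p = 0.158 and 0.319. Over the list, 10 of 19 genes were higher, 3 lower and 6 not called (68.4% called), and the median log2 difference was 0.75.

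**Figure D5:**
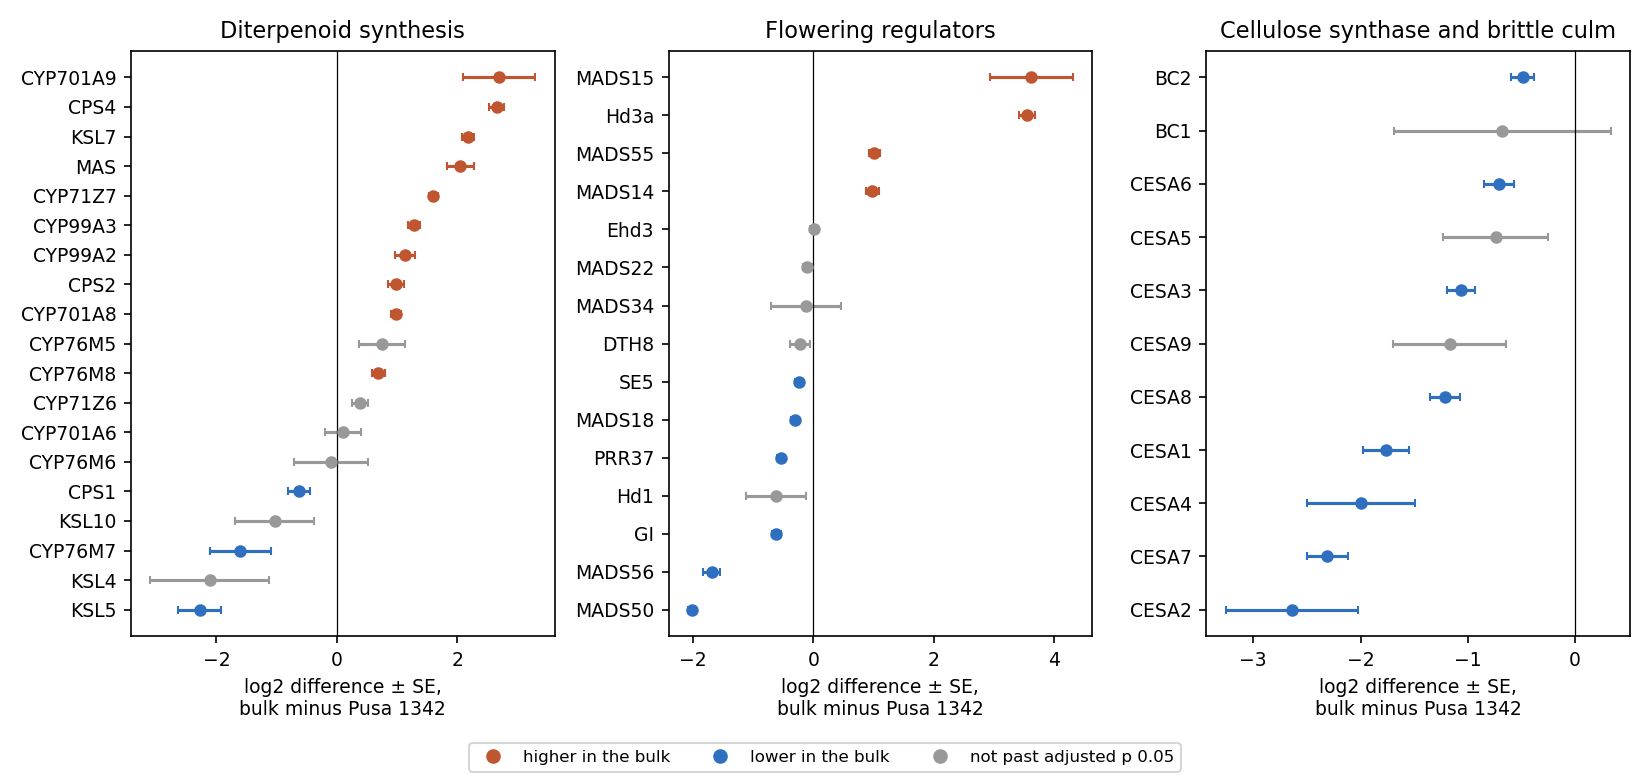
Log2 difference of the non-aromatic bulk minus Pusa 1342 with its standard error for every measured member of 3 lists: diterpenoid synthesis, flowering regulators, and cellulose synthase and brittle culm genes. Orange and blue points passed an adjusted p of 0.05 higher and lower in the bulk, and grey points did not. The diterpenoid genes have 10 orange and 3 blue points, the flowering regulators 4 and 6, and the cellulose synthase and brittle culm genes 0 and 8.

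In a list of other defence genes every member that passed was higher. Chitinases break down fungal cell walls, and the list also held pathogenesis-related proteins and protease inhibitors: 6 of 12 measured were higher, 0 lower and 6 not called, with a median log2 difference of 0.46. Cht8, on chromosome 10, read 8934, 8869, 9189 and 8143 in the bulk, against 2308, 2374, 2073 and 2219 in Pusa 1342. The groups did not overlap (log2 1.97), and Pusa 1121 averaged 7767 ± 276. All 3 probe sets of Cht8 rose, by 0.91 to 9.49, but their levels in Pusa 1342 disagreed. The probe set that rose by 9.49 averaged 8.61 in Pusa 1342, and the one that rose by 0.91 averaged 4771. Cht-1 read 1039, 1127, 1002 and 1288 in the bulk, against 456.3, 440.4, 370.8 and 339.7 in Pusa 1342 (log2 1.47), and Cht6 rose by 1.97. RBBI3.3, a Bowman-Birk protease inhibitor gene, averaged 1137 ± 107 in the bulk and 575 ± 22.5 in Pusa 1342 (log2 0.98, limma adjusted p = 1.17e-05). PBZ1, a probenazole-inducible pathogenesis gene, was bright in both groups and did not pass, with 24133 in the bulk and 24275 in Pusa 1342. Of 6 WRKY transcription factor genes, 2 were higher and 1 lower; WRKY51 averaged 1272 ± 117 in the bulk and 509 ± 75.6 in Pusa 1342 (log2 1.33).

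More jasmonate genes were called lower than higher. Jasmonate is made from linolenic acid by lipoxygenase, allene oxide synthase and later enzymes, and JAZ proteins repress its response genes until the receptor COI1 removes them. Of 33 genes measured, 5 were higher, 16 lower and 12 not called (63.6% called), with a median log2 difference of -0.30. JAZ8, a repressor, read 485.5, 600.4, 509 and 487.6 in the bulk, against 1938, 1873, 1810 and 1875 in Pusa 1342. Every bulk array was lower (log2 -1.85, SE 0.0927, limma adjusted p = 6.88e-09), and Pusa 1121 averaged 1281.

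The repressor JAZ11 averaged 293 in the bulk, 828 in Pusa 1342 and 201 in Pusa 1121 (log2 -1.50), JAZ12 fell by 0.86 and JAZ7 by 0.58. The receptor gene COI1 averaged 4230 ± 145 in the bulk and 5876 ± 360 in Pusa 1342 (log2 -0.47, limma adjusted p = 0.000149). AOS1, an allene oxide synthase gene, read 277.4, 173.8, 107.5 and 178.8 in the bulk, against 664.1, 766.5, 639 and 790.3 in Pusa 1342 (log2 -2.02). Repressor, receptor and synthesis genes were found among the falls, the lipoxygenase gene LOX2 (log2 -0.49) included. LOX9, a lipoxygenase gene on chromosome 8 like LOX8, read 2577, 2598, 2472 and 2709 in the bulk, against 672.2, 671.6, 640.7 and 629.6 in Pusa 1342 (log2 1.98, limma adjusted p = 2.65e-10), and Pusa 1121 averaged 3504. The other genes called higher were LOX8, described above, AOS2 by 1.79, OPR2 by 0.75 and the receptor gene COI2 by 0.38.

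In a list of cellulose synthase and brittle culm genes, which build and strengthen the plant cell wall, every member that passed was lower. The list took only names of CESA or BC followed by a number alone. BC1L9, described above, is therefore not counted in it, and it rose (log2 3.42). Of 11 measured, 0 were higher, 8 lower and 3 not called (72.7% called), and the median log2 difference was -1.17. Their summed intensity ran from 3640 to 4120 on the bulk arrays and from 8130 to 8660 on the Pusa 1342 arrays. CESA7, of the secondary wall, read 84.1, 121.1, 76 and 119.9 in the bulk, against 562.1, 415.5, 591.9 and 420.9 in Pusa 1342. The groups did not overlap (log2 -2.31, SE 0.191, limma adjusted p = 8.43e-07), and Pusa 1121 averaged 437 ± 63, which left the bulk below both parents. The aromatic bulk averaged 147 ± 24.1, also below both.

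CESA1, of the primary wall, read 272.4, 363.8, 419 and 264.4 in the bulk, against 1126, 1013, 1210 and 1064 in Pusa 1342 (log2 -1.76, limma adjusted p = 3.11e-05). CESA3 averaged 1359 ± 183 in the bulk and 2811 ± 117 in Pusa 1342 (log2 -1.06), and CESA8 averaged 481 ± 74.8 in the bulk and 1106 ± 119 in Pusa 1342 (log2 -1.21). Primary wall and secondary wall synthases were therefore both among the falls. Of the other secondary wall members, CESA4 passed with 135 ± 94.6 in the bulk and 405 ± 33.2 in Pusa 1342 (limma adjusted p = 0.0097), and CESA9, with 59.9 in the bulk and 131 in Pusa 1342, did not (limma adjusted p = 0.143). Of other genes linked to growth, 3 of 29 expansins passed (10.3%; 1 higher, 2 lower), and so did 5 of 34 cell cycle genes (14.7%; 0 higher, 5 lower). With the mean of a gene's probe sets, 3 cell cycle genes were higher and 6 lower. Under an intensity of 100 in both groups were 14 of the expansins and 10 of the cell cycle genes.

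More auxin genes were called lower than higher, and cytokinin genes were called in both directions. Of 51 auxin genes, 4 were higher, 17 lower and 30 not called (41.2% called), with a median log2 difference of -0.31. IAA15, one of the Aux/IAA repressors of auxin response, read 2289, 2035, 2123 and 2154 in the bulk, against 5136, 5109, 5460 and 5229 in Pusa 1342. Its groups did not overlap (log2 -1.28, limma adjusted p = 1.2e-08), and Pusa 1121 averaged 3559 ± 119. The repressor gene IAA17 averaged 12526 ± 301 in the bulk and 20261 ± 448 in Pusa 1342 (log2 -0.69), GH3.5, whose family conjugates auxin to amino acids, fell by 0.95, and the response factor gene ARF15 fell by 1.18.

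Cytokinins promote cell division and delay leaf ageing. Their list had 8 of 26 genes higher, 6 lower and 12 not called (53.8% called; median log2 0.10). The type-A response regulators RR2, RR4, RR6 and RR9, which are induced by cytokinin, were all higher: RR4 averaged 2189 ± 101 in the bulk and 1025 ± 25.3 in Pusa 1342 (log2 1.09, limma adjusted p = 3e-08), and RR2 averaged 1226 in the bulk and 349 in Pusa 1342 (log2 1.83). RR1, of the same type, fell by 0.75. The activating-enzyme genes LOGL5 and LOGL9 rose by 1.14 and 1.10. Among the cytokinin oxidases, which degrade the hormone, CKX11 averaged 2277 ± 81.9 in the bulk and 5264 ± 401 in Pusa 1342 (log2 -1.21), whereas CKX4 rose by 0.88.

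In the list of chlorophyll synthesis and breakdown, 2 of 12 genes were higher, 4 lower and 6 not called (50% called, median log2 -0.14). PORA, the light-dependent protochlorophyllide reductase known from greening seedlings, read 2297, 2376, 2157 and 2139 in the bulk, against 6806, 7733, 7220 and 7600 in Pusa 1342. The bulk arrays were all lower (log2 -1.71, SE 0.0707, limma adjusted p = 1.2e-09), and Pusa 1121 averaged 3076 ± 39.8. CHLG, chlorophyll synthase, averaged 2073 ± 105 in the bulk and 3727 ± 186 in Pusa 1342 (log2 -0.85), while CHLI, a subunit of magnesium chelatase, averaged 365 ± 75.4 in the bulk and 131 ± 52.9 in Pusa 1342 (log2 1.54). Of the 8 photosynthesis genes 1 was called (12.5%; 0 with the mean of a gene's probe sets). The 3 senescence markers had 0 called with limma, but 1 was higher with the mean of a gene's probe sets. With only probe sets of a mean of at least 100, 1 of the 2 senescence markers left was higher.

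Heat shock genes were called in both directions at a share near that of all genes, with 8 of 42 higher, 11 lower and 23 not called (45.2% called; median log2 -0.13). The small heat shock protein gene HSP18.6 read 2037, 2387, 1953 and 2261 in the bulk, against 5493, 6297, 5690 and 5678 in Pusa 1342 (log2 -1.43), with 213 in Pusa 1121. The chaperone gene hsp101 averaged 833 ± 47.6 in the bulk and 1699 ± 7.58 in Pusa 1342 (log2 -1.03, limma adjusted p = 9.05e-07). HSFB1, a heat shock factor gene, rose to 1632 ± 120 in the bulk, against 779 ± 42.4 in Pusa 1342 (log2 1.07). Small heat shock proteins and factors were found on both sides, since HSP18.0 rose by 0.52 and HSFA6B fell by 1.19.

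Transport genes differed member by member. Of 25 aquaporins, the water channels, 6 were higher and 7 lower (52% called); PIP2-5 read 980.6, 1113, 981.1 and 851.4 in the bulk, against 330.9, 275, 310.9 and 389.6 in Pusa 1342 (log2 1.59), while NIP2-2, which carries silicon, averaged 4277 ± 339 in the bulk and 8136 ± 287 in Pusa 1342 (log2 -0.93). Phosphate genes had 3 of 18 higher and 3 lower (33.3% called), among them the transporter PHT1-8, with 3617 in the bulk and 1317 in Pusa 1342 (log2 1.47). Iron and nicotianamine genes had 8 of 28 higher and 4 lower (42.9% called), among them YSL13, of the yellow stripe-like family of metal-chelate transporters, with 4447 ± 217 in the bulk and 2042 ± 206 in Pusa 1342 (log2 1.13).

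Of 16 ammonium and nitrogen genes, 7 were higher and 1 lower (50% called; median log2 0.18). NRT2.3, a nitrate transporter gene, averaged 688 ± 97.6 in the bulk and 269 ± 35.7 in Pusa 1342 (log2 1.35, limma adjusted p = 8.4e-06). The lower one, AMT1-2, an ammonium transporter gene, read 364.3, 385.6, 468.7 and 455.7 in the bulk, against 1102, 1044, 1048 and 1072 in Pusa 1342 (log2 -1.35). ICL, isocitrate lyase of the glyoxylate cycle, which turns fatty acid carbon into sugar precursors, averaged 678 ± 91.3 in the bulk, 164 ± 24.3 in Pusa 1342 and 26.6 in Pusa 1121 (log2 2.05 against Pusa 1342, limma adjusted p = 0.00859). MS, malate synthase of the same cycle, had 679 ± 119 in the bulk and 324 ± 66.7 in Pusa 1342 and did not pass (log2 1.08, limma adjusted p = 0.132), although its groups did not overlap.

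The remaining lists were as follows. Phenylpropanoid and lignin genes had 5 of 16 higher and 3 lower (50% called), with CAD2, a cinnamyl alcohol dehydrogenase gene, at 15322 ± 544 in the bulk and 5746 ± 177 in Pusa 1342 (log2 1.41, limma adjusted p = 7.66e-09). Of 5 other terpene and carotenoid genes 0 were higher and 3 lower (5 with only probe sets of a mean of at least 100), LIS and the phytoene synthase gene PSY3 (log2 -0.70) among them. Ethylene genes had 2 of 9 higher and 3 lower. That list leaves out the EIL1 locus described above (log2 6.70), because another gene shares its name. Calcium sensors had 6 of 30 higher and 7 lower. Ribosomal proteins had 7 of 22 higher and 3 lower (13 and 6 with only probe sets of a mean of at least 100). Alcohol and aldehyde genes had 5 of 14 higher and 1 lower, tubulins 1 of 9 higher and 2 lower (2 and 3 with the mean of a gene's probe sets), and water stress genes 2 of 8 higher and 1 lower. Seed markers had 1 of 10 higher, WX1 of starch synthesis, at 426 ± 86.6 in the bulk and 71.8 ± 17.6 in Pusa 1342 (log2 2.57; 3 of its 5 other probe sets were not called), and 1 lower. Of 3 root markers 1 was higher, SCR1, at 201 in the bulk and 92.8 in Pusa 1342.

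Arrays of 1 group resembled each other more than arrays of both groups. Over all probe sets the correlation of log2 values averaged 0.917 between bulk arrays, 0.93 between Pusa 1342 arrays and 0.892 between a bulk and a Pusa 1342 array. It averaged 0.887 between a bulk and a Pusa 1121 array, and 0.904 between a bulk and an aromatic bulk array. The probe sets are not independent and the arrays share a common distribution, so these values are a description. In 13 of 242 groups of 4 arrays, over 121 genes looked at, 1 array stood apart from the other 3: these were bulk arrays for ADC1, Cht6, CYP99A3, MAS and RR2, and Pusa 1342 arrays for BURP16, PHT1-8, RR9, LOC4329826, MS, TUB4, LOC4340998 and HSFA6B.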

How the data were processed

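The authors deposited linear intensities of 0.201 to 45123, which they had brought to a common distribution: the median (64.2) and upper quartile (434) did not vary between arrays. GCOS 1.2 and RMA are named, without role or order, in the submitters' processing notes. The genome build is not given in the sources used here. A shift of all genes together would not be seen in such values, and no detection calls were used.

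Groups came from the sample titles. Of 57381 probe sets 187 controls were left out. Values were taken as log2(value + 1) and limma 3.58.1 (R 4.3.3) was run on 16 arrays with lmFit and eBayes (4 group means, 12 residual degrees of freedom). The contrast was the non-aromatic bulk minus Pusa 1342, two-sided, adjusted by Benjamini-Hochberg over all 57194 probe sets, with a threshold of 0.05. Residual SDs had a median of 1.09 (log2) in dimmer and 0.196 in brighter probe sets, and the number of arrays limits the precision. The fit was tested on simulated data.

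Genes were named by the platform annotation and a gene table of RefSeq, used for names, chromosome and order only: 22436 probe sets had 1 gene, 95 several and 34663 none listed here. Published names were nearly all found as synonyms. Each of the 17905 genes was read through its probe set of highest mean, and 3444 genes had several.

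The gene lists and members were chosen with earlier results of these data known. Named were the fragrance and proline genes, the 12 largest rises and falls among genes with a published name and 5 each way among other loci (called, no overlap, higher mean of at least 200), and up to 6 members per list with the lowest p. The text gives a part of them. MS, Hd1, MADS18, CCA1, PBZ1, KSL4, KSL10, CESA4, CESA9, CPS1, CPS2, CYP76M7, CYP99A2, KSL5, COI1, JAZ7, AOS2, OPR2, LOGL5, LOGL9, RR1, LOX2, COI2, HSP18.0, HSFA6B and the neighbours of BADH2 were added after values were seen. No list was tested as a set.

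Same-numbered arrays of both groups did not deviate together (correlations from -0.012 to 0.0325), so the replicate numbers were not used as pairs. The alternatives were a replicate block, only the 8 arrays compared, a pseudocount of 16, a minimum mean of 100, centring on the median, an intensity trend, the mean of a gene's probe sets, and leaving out each array in turn.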

Additional observations from a re-analysis of the deposited data

Results flagged for a closer look

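In 13 of 242 groups of 4 arrays, over the 121 genes looked at, 1 array stood apart from the other 3 by Dixon's criterion, which chance meets in about 1 of 20 groups. Among the non-aromatic bulk arrays, replicate 4 was high for ADC1, at 12987 with the others from 11287 to 11482, and for Cht6, at 1412 with the others from 1165 to 1188. Replicate 3 of the bulk was high for CYP99A3, at 1489 with the others from 1391 to 1408, and for MAS, at 230 with the others from 167.5 to 178.1. Replicate 1 of the bulk was low for RR2, at 1100 with the others from 1260 to 1283.

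Among the Pusa 1342 arrays, replicate 1 was high for HSFA6B, at 101.6 with the others from 87 to 89.1. Replicate 2 was high for BURP16, at 51.6 with the others from 6 to 11.5, low for PHT1-8, at 1017 with the others from 1389 to 1455, and low for RR9, at 951.2 with the others from 1081 to 1092. Replicate 3 was low for LOC4329826, at 2433 with the others from 2704 to 2741, and for MS, at 225 with the others from 349.7 to 370. Replicate 4 was high for TUB4, at 2204 with the others from 2033 to 2057, and for LOC4340998, at 42.9 with the others from 4 to 5.4.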

How the results depend on the processing

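BADH2 stayed between -1.66 and -1.58 on the log2 scale with each array left out and at -1.59 with a pseudocount of 16, with adjusted p from 5.43e-11 to 6.77e-05 over the alternatives. The count of probe sets called, 13514, became 11144 with only the 8 arrays compared, 12708 with a replicate block, 14287 with a pseudocount of 16, 14247 with a minimum mean of 100, 13511 after centring, 15114 with an intensity trend, and 12062 to 12585 with an array left out. The replicate numbers are shared only as numbers; with the replicate block BADH2 had an adjusted p of 3.79e-06, and of the named genes CAD8A alone lost its call (0.0664). Of 168 other named genes, 140 kept direction and call throughout. With the mean of a gene's probe sets in place of the brightest, OAT turned to -0.53 (adjusted p = 0.000177), RBCS to -0.24 (0.208), CIPK2 to 0.27 (0.357) and RPL10A to 0.11 (0.364), PRR37 lost its call (-0.07, 0.396), and the members called became 0 of 8 for photosynthesis, 9 of 34 for the cell cycle (3 higher, 6 lower) and 5 of 9 for tubulins. With a minimum mean of 100 they became 5 of 5 for the other terpene and carotenoid genes, 2 for photosynthesis and 19 of 22 for ribosomal proteins. The floral organ markers called, 1 of 11, became 2 with the mean of a gene's probe sets and 3 of 3 with a minimum mean of 100. The senescence markers called, 0 of 3, became 1 under either of these alternatives. With only the 8 arrays compared, 12 named genes lost their call. The causes were not tested. Small differences in dim genes, whose residual SD was 1.09, could not be resolved.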
